A study of Mus musculus with 6 samples.

Results

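The fibroblast growth factor (FGF) genes described here are the ligand genes Fgf1, Fgf2, Fgf7, Fgf9, Fgf10 and Fgf18 and the receptor genes Fgfr1, Fgfr2, Fgfr3 and Fgfrl1. They were found by symbol and make up 10 of the 24348 genes in the count table. All 10 passed the filter on low counts. RNA was sequenced from fibroblasts taken by flow cytometry from collagenase-digested synovium, the membrane that lines the joint, of adult wild-type C57BL/6 mice. The IC group (n = 3) had received immune complexes through a vein, which the study's methods describe as ovalbumin bound by rabbit antibodies against it. The control group, titled Vehicle with the treatment given as Control (n = 3), had not received IC. No transgene or other agent is given for either group. The labels do not state the time after injection or whether a library came from 1 mouse or several, so p-values measure the spread between these libraries, which may be technical in part. The study asked whether fibroblasts respond to circulating IC through cues from neighbouring macrophages.

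FGF ligands are secreted proteins that bind receptor tyrosine kinases on the cell surface, with heparan sulfate chains as part of the complex. The activated receptor signals through the adaptor FRS2 to RAS and the MAP kinase cascade, which in turn raises feedback inhibitors of the Sprouty, Spred and Dusp families. Fibroblasts are a known source of FGF7 and FGF10, which act mainly on epithelial cells, and FGF18 and FGFR3 are known for their roles in cartilage and bone.

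The sorted cells carried fibroblast markers in every library. Pdgfra stood at 910.2 to 1101 CPM (each count as a share of the library's total, on the usual CPM scale), and 7 fibroblast markers together at 43754 to 54646 CPM, of which Col3a1 and Lum were called lower after IC. Other cell types were present at low levels. The sum of 10 skeletal muscle and satellite cell markers was 17.3 to 46.7 CPM after IC and 49.1 to 107 CPM after vehicle, with 2 of 9 tested called lower. Endothelial markers summed to 196 to 261 and 267 to 312 CPM, with 2 of 8 called lower, and mural markers to 471 to 571 and 557 to 588 CPM, with 1 of 6 called lower. Lining fibroblast markers summed to 754 to 867 CPM after IC and 543 to 690 CPM after vehicle, with 1 of 6 called higher and 2 lower. Sublining fibroblast markers summed to 3654 to 4069 and 3994 to 4604 CPM, with 1 of 6 called lower. Chondrocyte and bone markers summed to 680.0 to 771 and 435 to 650 CPM, a sum that rested on Comp, with none of 6 tested called. Sums overlapped between groups for Schwann cell (31.0 to 112 and 40.5 to 90.0 CPM), macrophage (24.0 to 36.1 and 27.4 to 32.7 CPM), lymphocyte (1.20 to 2.55 and 2.17 to 2.93 CPM), adipocyte (1.48 to 3.11 and 1.76 to 3.77 CPM) and keratinocyte markers (30.3 to 47.0 and 12.9 to 60.3 CPM), and none of their tested genes was called. Of these markers, 1 of 5 lymphocyte, 4 of 6 macrophage, 5 of 6 keratinocyte and 8 of 10 chondrocyte and bone genes were in the table, and none of those was at 0 in every library. Counts of replicates within a group varied beyond sampling error (chi-square divided by its degrees of freedom, 12.97 to 55.1). The gene Gm42418, annotated over ribosomal RNA sequence, took 0.375% to 0.964% of counts, most in vehicle replicate 1.

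Among the 10 FGF genes, 2 of the 6 ligand genes passed the test. Fgf9 rose 2.27-fold after IC, and Fgf10 fell by 33.2%. The other 8 genes did not pass the test, among them all 4 receptors. DESeq2 thus called 2 of the 10 genes, 1 higher and 1 lower, where it called 2.10% of all genes tested, 1.03% as higher and 1.07% as lower. edgeR called Fgf9 alone, against 0.186% of all genes tested. The IC and vehicle values lay apart for 3 of the 10, Fgf1, Fgf9 and Fgf10, against 15.8% of all genes tested. The median log2 fold change of the 10 genes was −0.03 and that of all genes tested −0.0019.

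**Figure D1:**
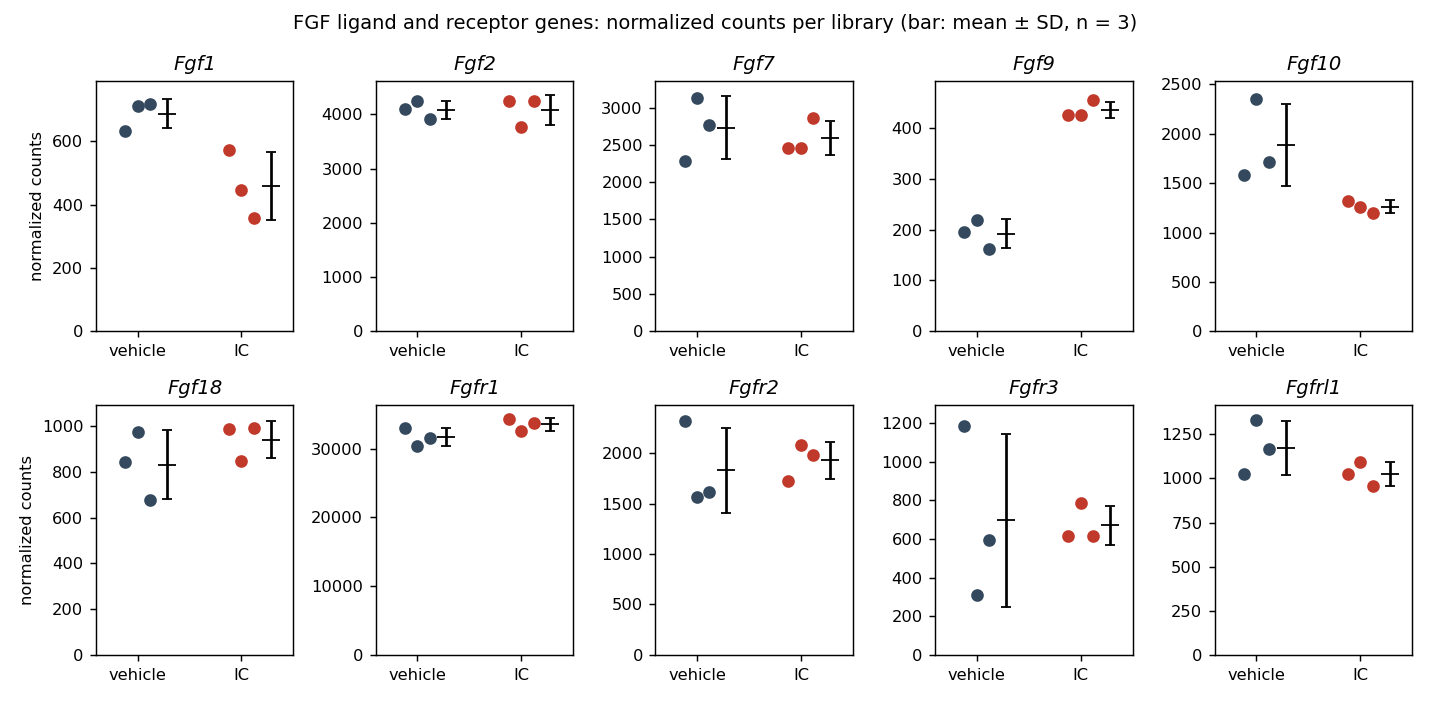
Normalized counts (vertical axes, linear and starting at 0) of each of the 10 FGF genes in the 3 vehicle and 3 IC libraries, one point per library, with the mean and SD beside each group. The IC points of Fgf9 lie above all vehicle points, those of Fgf10 and Fgf1 lie below them, and the vehicle points of Fgfr3 spread from 309 to 1186.

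Fgf9 (ENSMUSG00000021974, chromosome 14, 58070547 to 58112720, plus strand, GRCm38) encodes a secreted ligand that signals mainly to mesenchymal cells through the IIIc forms of the receptors. It had 426, 426 and 454 normalized counts in IC replicates 1 to 3. In vehicle replicates 1 to 3 it had 194, 219 and 162. Every IC library was above every vehicle library, and the IC libraries lay close together. Mean normalized counts were 436 ± 16.3 (SD, n = 3) in IC and 192 ± 28.8 (SD, n = 3) in vehicle, giving a log2 fold change of 1.18 with a 95% interval of 0.77 to 1.60 and a DESeq2 adjusted p of 9.79e-06. It ranked 38 of 19925 genes by p. The adjusted p was 0.0287 by edgeR's quasi-likelihood test and 0.0303 by limma-voom. Fgf9 was called in all 6 fits that left out 1 library, with log2 fold changes of 1.08 to 1.29 and DESeq2 adjusted p of 1.69e-06 to 0.000612. These values rest on raw counts of 387, 412 and 507 after IC and 237, 232 and 133 after vehicle.

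The summed lining fibroblast and chondrocyte and bone markers also lay apart, with all IC sums above all vehicle sums. Prg4, which encodes the joint lubricant lubricin and marks the lining, had 361, 465 and 473 CPM after IC and 178, 281 and 213 CPM after vehicle, a log2 fold change of 0.94 with a DESeq2 adjusted p of 0.0103. limma-voom also made this call (adjusted p 0.0339), and edgeR did not (adjusted p 0.0541). The call was lost when IC replicate 2 (DESeq2 adjusted p 0.152) or 3 (0.155) or vehicle replicate 3 (0.129) was left out. It was kept without IC replicate 1 (4.97e-07), vehicle replicate 1 (2.19e-06) or vehicle replicate 2 (9.80e-14). The lining markers Clic5 (−0.68) and Tspan15 (−0.90) were called lower. Prg4 was the only lining marker with every IC value above every vehicle value, and the lining sum lay apart through it. The median log2 fold change of the 6 lining markers was −0.06. The cartilage matrix gene Comp had 622, 719.5 and 674.5 CPM after IC and 366, 568 and 593 CPM after vehicle (DESeq2 adjusted p 0.577). The other 5 tested chondrocyte and bone markers had negative estimates, and the median log2 fold change of the 6 was −0.43. Col2a1, the defining cartilage collagen, had 4.96, 3.88 and 3.65 CPM after IC and 8.99, 4.98 and 7.01 CPM after vehicle, each IC value below each vehicle value (log2 fold change −0.75, DESeq2 adjusted p 0.107). The part of these cells in the Fgf9 difference was not tested. In bulk RNA, fewer cells of a type and less RNA per cell cannot be told apart.

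The 3 genes whose pattern was most like that of Fgf9 over the 6 libraries were Lysmd3, Pycr1 and Recql. Their Pearson correlations with Fgf9 on the log2 scale were 0.9992, 0.9941 and 0.9916, the highest of 13434 genes. They are given as a description, since 6 libraries in 2 groups share size factors and treatment and high values are common among so many genes. Pycr1, an enzyme of proline synthesis, was called higher with a log2 fold change of 0.62 and a DESeq2 adjusted p of 0.0174. Lysmd3 had 0.25 (0.0704) and Recql 0.22 (0.538).

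Fgf10 (ENSMUSG00000021732, chromosome 13, 118669791 to 118792115, plus strand) encodes a mesenchymal ligand for the IIIb form of FGFR2. It had 1323, 1262 and 1195 normalized counts in IC replicates 1 to 3 and 1585, 2356 and 1717 in vehicle replicates 1 to 3. All 3 IC libraries lay below the lowest vehicle library, and vehicle replicate 2 stood above the other two of its group. Mean normalized counts were 1260.0 ± 64.5 (SD, n = 3) in IC and 1886 ± 412 (SD, n = 3) in vehicle, giving a log2 fold change of −0.58 with a 95% interval of −0.87 to −0.29 and a DESeq2 adjusted p of 0.00635. The edgeR adjusted p was 0.129, so edgeR did not call it, and limma-voom gave 0.140. The DESeq2 call was lost without IC replicate 2 (adjusted p 0.0590), IC replicate 3 (0.0764) or vehicle replicate 2 (0.0649), and the log2 fold change without vehicle replicate 2 was −0.39.

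An antisense gene, Gm16263, shares 123 exon bases with Fgf10, 2.67% of the merged exons. Its normalized counts were 71.6, 104 and 64.5 after IC and 127, 133 and 158 after vehicle, with a log2 fold change of −0.80 and a DESeq2 adjusted p of 0.295. Reads in the shared bases cannot be assigned to a strand here, because the strand setting of the counting is not given.

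Fgf1, a ligand that can bind every FGF receptor kinase, had an estimate as large as that of Fgf10 but did not pass the test. It had 572, 445 and 358 normalized counts in IC replicates 1 to 3 and 634, 710.3 and 717 in vehicle replicates 1 to 3. The groups did not overlap, but the IC libraries were spread out and IC replicate 1 stood nearest to vehicle. The means were 459 ± 107 (SD, n = 3) and 687 ± 46.3 (SD, n = 3), giving a log2 fold change of −0.58 with a 95% interval of −0.96 to −0.21 and a DESeq2 adjusted p of 0.0727. By edgeR it was 0.252. Without IC replicate 1 the log2 fold change was −0.78 with a DESeq2 adjusted p of 0.00584, and in the other 5 fits without 1 library Fgf1 was not called.

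The muscle and endothelial marker sums lay apart too, with all IC sums below all vehicle sums, as for Fgf10 and Fgf1. Within the IC group muscle markers were highest in replicate 1 (46.7 CPM) and lowest in replicate 3 (17.3 CPM), as were Fgf1 and Fgf10. Within the vehicle group muscle markers were highest in replicate 2 at 107 CPM, as was Fgf10, while Fgf1 was highest in replicate 3. Muscle markers were lowest in vehicle replicate 3 at 49.1 CPM, while Fgf10 and Fgf1 were lowest in vehicle replicate 1. Endothelial markers had another order, with 259.6, 261 and 196 CPM in IC replicates 1, 2 and 3. In vehicle replicates 1, 2 and 3 they had 312, 267 and 303 CPM, lowest in replicate 2 where Fgf10 was highest. Tek made up the largest part of this endothelial sum. It had 139.5, 136.2 and 120.4 CPM after IC and 134.9, 136.9 and 141.4 CPM after vehicle (DESeq2 adjusted p 0.888). The part of these cells in either difference was not tested.

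Fgf7, Fgf2 and Fgf18 overlapped between groups. Fgf7 (chromosome 2, 126034658 to 126091185), the closest relative of Fgf10 among these ligands and also known as keratinocyte growth factor, had 2463, 2456 and 2855 normalized counts after IC and 2287, 3131 and 2767 after vehicle. Its log2 fold change was −0.07 with a 95% interval of −0.32 to 0.17 (DESeq2 adjusted p 0.929). The vehicle libraries alone spanned the IC values. Fgf2 (chromosome 3, 37348346 to 37410108), a ligand without a classical secretion signal, had 3764 to 4250.2 normalized counts after IC and 3916 to 4247 after vehicle, with a 95% interval of the log2 fold change of −0.18 to 0.18. It was the most even ligand across the libraries. Fgf2 shares 640 exon bases, 9.44% of its merged exons, with Nudt6 on the opposite strand, which had 56.5 to 149 normalized counts. Fgf18 (chromosome 11, 33117430 to 33147400) had 985, 845 and 992 normalized counts after IC and 841, 976 and 677 after vehicle, a log2 fold change of 0.18 with a 95% interval of −0.14 to 0.49 (DESeq2 adjusted p 0.813).

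**Figure D2:**
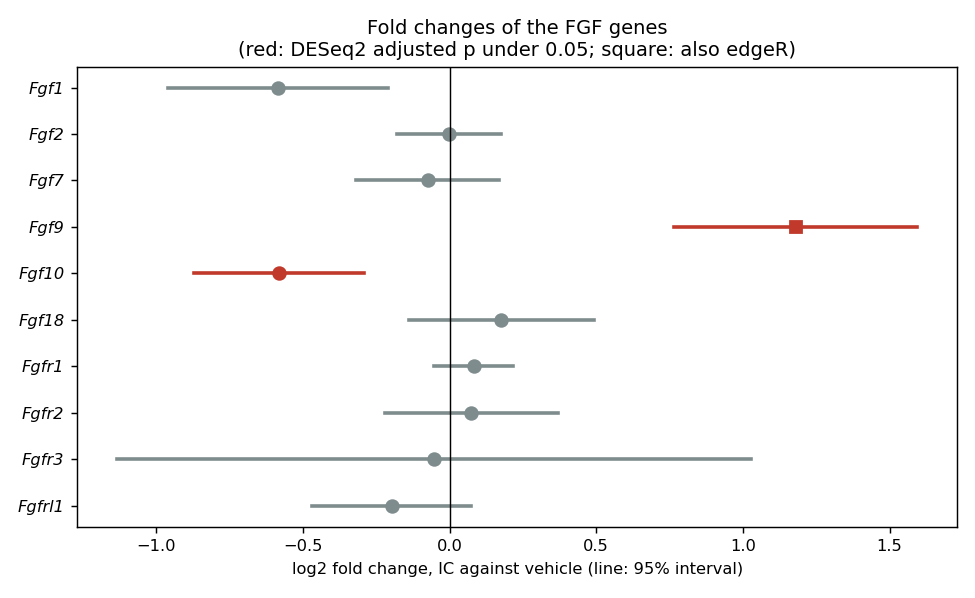
Log2 fold change of each FGF gene between IC and vehicle by DESeq2 (points), with its 95% interval (lines). Red marks an adjusted p under 0.05 by DESeq2 and the square marks a call by edgeR as well. The interval of Fgf9 runs from 0.77 to 1.60 and that of Fgf10 from −0.87 to −0.29, while that of Fgfr3 is the widest, from −1.13 to 1.03.

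The balance between ligands can be read within a library, where depth and gene length cancel from the comparison of groups. Fgf10 had 3.10, 2.96 and 2.63 times the counts of Fgf9 in IC replicates 1 to 3. In vehicle replicates 1 to 3 it had 8.16, 10.75 and 10.62 times as many. The ranges lay far apart. Fgf7 had 1.86, 1.95 and 2.39 times the counts of Fgf10 after IC and 1.44, 1.33 and 1.61 times after vehicle, and the ranges of this ratio within the FGF7 subfamily did not overlap either. These ratios follow from the counts of the 3 genes and are a description, not a further test.

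**Figure D3:**
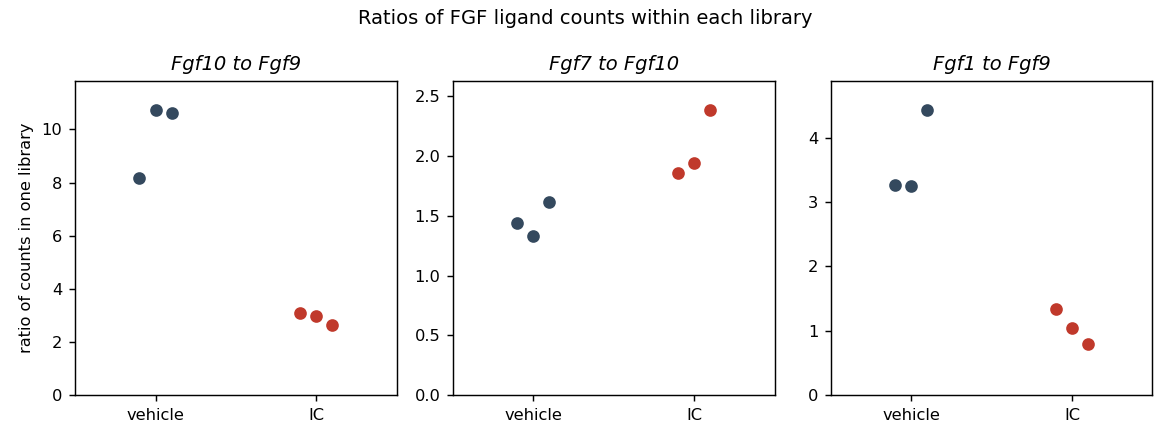
Ratio of the counts of 2 ligand genes within each library (vertical axes, linear and starting at 0) for Fgf10 to Fgf9, Fgf7 to Fgf10 and Fgf1 to Fgf9, one point per library. The Fgf10 to Fgf9 ratio is 2.63 to 3.10 in the IC libraries and 8.16 to 10.75 in the vehicle libraries.

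The promoters of Fgf9 and Fgf10 are shown because these 2 genes were called, and that of Fgf7 because it is the subfamily relative of Fgf10 that was not. Each run is the 250 bases before the annotated start in RefSeq on GRCm38.p6, plus strand, at chr14:58072436-58072685, chr13:118714449-118714698 and chr2:126034408-126034657 in the order below. The windows of Fgf9 and Fgf10 lie inside the gene spans given above, so starts further upstream in these genes were not searched. Capitals mark a match to any of 8 motifs searched on both strands. These were the NF-kB and ISRE consensus motifs, TTCNNNGAA for GAS, TGANTCA for AP-1, TGACG for the CRE half-site, GGGCGG for the GC box, CCAAT for the CCAAT box and TATAAA for the TATA box. No motif marked here overlaps another.
Fgf9: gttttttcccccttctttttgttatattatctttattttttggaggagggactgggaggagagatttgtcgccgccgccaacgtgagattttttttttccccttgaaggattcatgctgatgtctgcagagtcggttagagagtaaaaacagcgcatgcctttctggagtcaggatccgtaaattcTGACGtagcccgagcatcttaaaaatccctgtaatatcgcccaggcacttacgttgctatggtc
Fgf10: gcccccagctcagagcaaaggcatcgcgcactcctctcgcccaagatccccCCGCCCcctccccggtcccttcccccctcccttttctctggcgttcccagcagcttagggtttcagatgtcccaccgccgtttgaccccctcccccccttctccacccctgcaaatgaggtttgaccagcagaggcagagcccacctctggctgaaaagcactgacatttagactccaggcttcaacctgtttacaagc
Fgf7: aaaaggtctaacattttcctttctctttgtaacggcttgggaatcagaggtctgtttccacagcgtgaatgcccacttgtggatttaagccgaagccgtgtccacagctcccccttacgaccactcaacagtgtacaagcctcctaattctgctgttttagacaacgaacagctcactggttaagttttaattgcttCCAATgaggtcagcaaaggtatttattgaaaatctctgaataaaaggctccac
The Fgf9 window held 1 CRE half-site, a motif present in 17.8% of 32851 promoter windows of this length. The Fgf10 window held 1 GC box, present in 32.7%, and the Fgf7 window 1 CCAAT box, present in 33.8%. None of the 3 windows held the letters of the NF-kB (7.25% of windows), GAS (7.02%), ISRE (2.98%), AP-1 (6.75%) or TATA (12.4%) motif. The windows of Fgf9 and Fgf7 had 44.8% and 43.6% G and C and that of Fgf10 61.2%, where the median window had 52.4%. A match is a description of the letters and not evidence of binding.

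None of the 4 receptor genes passed the test, and the values of the groups overlapped for each. Fgfr1 (chromosome 8, 25513654 to 25575718), the main receptor kinase of mesenchymal cells, had 34353, 32543 and 33753 normalized counts in IC replicates 1 to 3. In vehicle it had 33036, 30397 and 31609.8. Its log2 fold change was 0.08 with a 95% interval of −0.05 to 0.22 and a DESeq2 adjusted p of 0.770, the narrowest interval of the 10 genes. Fgfr2 (chromosome 7, on the minus strand), the receptor kinase for FGF7 and FGF10 in its IIIb form, had 1720.1, 2082 and 1980.4 after IC and 2316, 1561 and 1612 after vehicle, a log2 fold change of 0.07 with a 95% interval of −0.22 to 0.37 (DESeq2 adjusted p 0.946). Counts per gene do not separate the IIIb and IIIc forms. Fgfr2 shares 314 exon bases, 3.04% of its merged exons, with Ctbp2 on the same strand. Fgfrl1 (chromosome 5, 108692382 to 108706924), a receptor-like protein without a kinase domain, had 1023, 1093 and 956 after IC and 1027, 1331 and 1165 after vehicle, a log2 fold change of −0.20 with a 95% interval of −0.47 to 0.07 (DESeq2 adjusted p 0.686).

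Fgfr3 (chromosome 5, 33721674 to 33737068), the receptor kinase known for restraining growth of cartilage, varied most. It had 614, 789 and 614 normalized counts after IC and 1186, 309 and 596 after vehicle. The vehicle libraries spanned all IC values, and the means were 672 ± 101 and 697 ± 447 (SD, n = 3 each). Its log2 fold change was −0.05 with a 95% interval of −1.13 to 1.03, so that a 2-fold difference in either direction lay within the interval. Without vehicle replicate 1 the log2 fold change was 0.57 (DESeq2 adjusted p 0.263), and without vehicle replicate 2 it was −0.41 (0.724). Keratinocyte markers summed to 60.3, 12.9 and 29.3 CPM in vehicle replicates 1, 2 and 3, the same order as Fgfr3, and to 47.0, 35.1 and 30.3 CPM in IC replicates 1, 2 and 3, a different order. Trp63, a factor of basal epithelial cells, had 19.2, 5.75 and 6.83 CPM in the vehicle libraries and 6.01, 11.2 and 6.09 CPM in the IC libraries. Of these markers Trp63 and Epcam were highest where Fgfr3 was highest in each group. Krt5 and Krt14 were so only in vehicle, being highest in IC replicate 1 at 25.45 and 13.22 CPM. Krt10 was highest in replicate 3 of each group. The part of these cells in the spread of Fgfr3 was not tested. Fgfr3 also shares 998 exon bases, 13.9% of its merged exons, with G630022F23Rik on the opposite strand, which had at most 31.4 normalized counts in a library.

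Levels of different genes were compared as normalized counts per kilobase of merged exons. Over the 6 libraries Fgfr1 was highest at 3303 ± 146 (SD, n = 6), 4.03 times the next gene, and its range did not overlap with any other. Fgf7 (819 ± 96.5), Fgf18 (747 ± 104) and Fgf2 (603 ± 30.3) followed, and neighbours in this order overlapped. Fgfrl1 (395 ± 48.1) and Fgf10 (342 ± 94.0) overlapped as well and lay below Fgf2. Fgfr2 (182 ± 28.7) came next, with a range of 151 to 224. Fgf1 (105 ± 26.6), Fgfr3 (95.6 ± 40.6) and Fgf9 (67.5 ± 29.1) were lowest, with overlapping ranges. Fgf9 was the lowest of the 10 in vehicle at 41.2 ± 6.20 (n = 3) and stood at 93.7 ± 3.50 after IC (n = 3), where Fgf1 was lowest at 83.9 ± 19.6. With the longest transcript of each gene as its length, Fgfr2 moved above Fgf10 and Fgfr3 above Fgf1, and the first 5 genes kept their order. The receptor kinase levels moved most with that length, Fgfr1 to 6470.0 against 995 for Fgf7, Fgfr2 to 424 and Fgfr3 to 161, so the distance of Fgfr1 from the next gene depends on the length used.

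**Figure D4:**
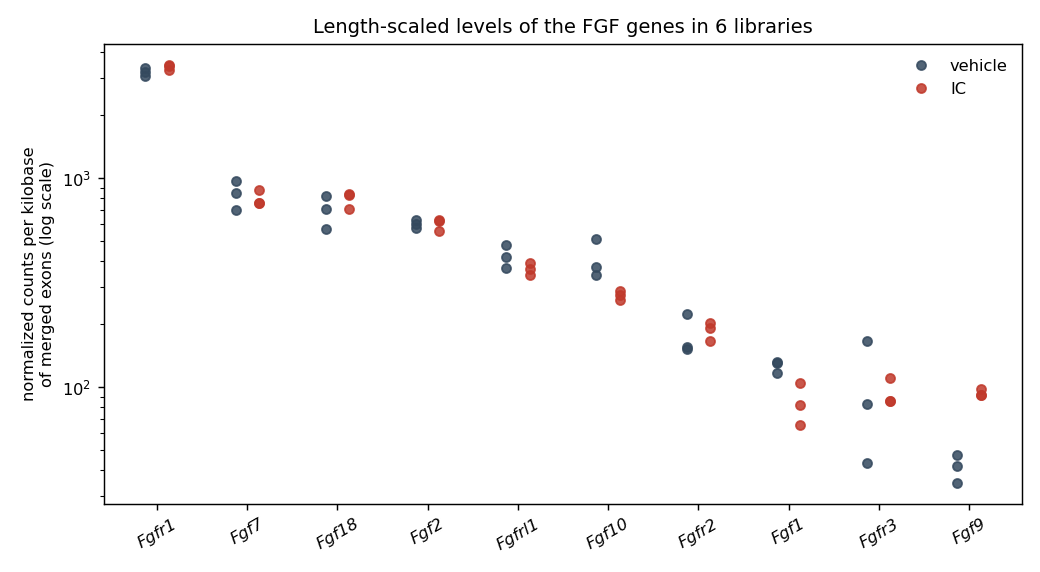
Normalized counts per kilobase of merged exons (vertical axis, log scale) of the 10 FGF genes, in order of their mean over 6 libraries, one point per library. Fgfr1 stands at 3078 to 3479, apart from all other genes, and Fgf9 separates into 34.8 to 47.1 in vehicle and 91.6 to 97.7 after IC.

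Fgfr1 held most of the signal of the 3 receptor kinase genes among the 10 by this measure. Its share of the sum of Fgfr1, Fgfr2 and Fgfr3 was 93.2%, 91.4% and 92.5% in IC replicates 1 to 3 and 89.6%, 94.1% and 93.0% in vehicle replicates 1 to 3. The means differed by 0.14 percentage points (exact permutation test, two-sided, p = 0.9, where 3 libraries against 3 allow no p below 0.1). Fgfr4, a further receptor kinase gene, was not part of this sum. Its mean normalized counts were 375 after IC and 1343 after vehicle, so the share and its test cover only the 3 genes named. Among the 6 ligands, Fgf9 had a share of 3.55% ± 0.154 (SD, n = 3) in IC and 1.52% ± 0.145 (SD, n = 3) in vehicle. That of Fgf10 was 10.4% ± 0.887 and 15.0% ± 1.44, and that of Fgf18 29.9% ± 0.998 and 25.7% ± 2.91. Shares of one sum depend on each other and are given as a description.

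The other genes of the pathway were followed in lists by role. Of 16 other genes of the FGF family, 10 were in the table and 6 were tested, Fgf11, Fgf12, Fgf13, Fgf16, Fgf17 and Fgf23. DESeq2 called none, none had an unadjusted p under 0.05 by DESeq2 or edgeR, and limma-voom called none. Fgf16 and Fgf13 had the smallest p, with log2 fold changes of −0.40 (DESeq2 adjusted p 0.770) and −0.60 (0.849). The untested genes Fgf8, Fgf14, Fgf20 and Fgf22 had 0 to 16 raw counts per library. Mean normalized counts of the 6 tested genes ran from 12.6 for Fgf23 to 343 for Fgf11, an FGF homologue that stays inside the cell.

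Of 9 tested co-receptors, ligand carriers and other receptors, DESeq2 called 1, Ncam1, which was lower after IC. Ncam1, a cell adhesion molecule that can bind FGF receptors, had 2279, 1937 and 1975 normalized counts after IC and 3177, 4021 and 2792 after vehicle, a log2 fold change of −0.69 with a DESeq2 adjusted p of 5.31e-05. It was called in all 6 fits without 1 library, and the edgeR adjusted p was 0.0593. Ncam1 is also known from muscle satellite cells. The muscle and satellite cell markers summed to 46.7, 33.3 and 17.3 CPM after IC and 82.4, 107 and 49.1 CPM after vehicle. They had the same order of vehicle libraries as Ncam1 and were likewise highest in IC replicate 1 of the IC group. The rest of the IC order differed, with the markers lowest in replicate 3 and Ncam1 lowest in replicate 2. Fgfr4, the remaining receptor kinase and a known gene of muscle satellite cells, had 661, 304 and 159.5 normalized counts after IC and 1395, 1661 and 975 after vehicle. The groups lay apart, with a log2 fold change of −1.84 and a DESeq2 adjusted p of 0.0806. It was called without IC replicate 1 (6.30e-15) and in no other fit without 1 library. Pax7, the defining factor of satellite cells, had 13.6, 6.62 and 2.80 CPM after IC and 26.0, 35.0 and 14.7 CPM after vehicle (DESeq2 adjusted p 0.206). Within each group Pax7 had the same order of libraries as Fgfr4. Myf5 and Myh1, also among these markers, were called lower (DESeq2 adjusted p 0.000122 and 0.00311). In vehicle replicates 1 to 3 Myf5 had 9.66, 8.43 and 5.96 CPM and Myh1 4.41, 2.74 and 0.474 CPM, another order than Fgfr4. The part of these cells in the values of Ncam1 and Fgfr4 was not tested. The list had 7 negative and 2 positive estimates and a median log2 fold change of −0.43.

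Of 19 genes of the intracellular relay, 9 had positive and 10 negative estimates, with a median log2 fold change of −0.04. DESeq2 called 1, the RAS gene Nras, and edgeR and limma-voom called none. Nras had 6683, 7200.0 and 7232 normalized counts after IC and 6141, 5466 and 5608 after vehicle, a log2 fold change of 0.29 with a DESeq2 adjusted p of 0.0237. The call was lost when IC replicate 2 or 3 or vehicle replicate 2 or 3 was left out, with DESeq2 adjusted p of 0.120 to 0.156, and with 1 surrogate variable (0.0951). The adaptor gene Frs2 and the MAP kinase gene Mapk3 had log2 fold changes of −0.04 and −0.14 (DESeq2 adjusted p 0.946 and 0.714).

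Of 16 tested feedback inhibitors and target genes of the cascade, none was called by DESeq2, edgeR or limma-voom. At an unadjusted p under 0.05 DESeq2 and edgeR each listed 5 of them, against 9.80% and 9.64% of all genes tested. Of these, Spry1, Spry2, Spred2 and Dusp6 were lower after IC. Fosl1 was higher, with a log2 fold change of 0.42 (DESeq2 adjusted p 0.334). The estimates were negative for 11 and positive for 5, with a median log2 fold change of −0.12. Spry1 had 2974, 2845 and 2577 normalized counts after IC and 3299, 3788 and 3259 after vehicle, a log2 fold change of −0.30 (DESeq2 adjusted p 0.0926). Spry2 had −0.26 (0.0974), and its groups did not overlap either. Dusp6, a MAP kinase phosphatase gene, had −0.28 (0.159), while the ETS factor genes Etv4 and Etv5 had 0.23 (0.815) and −0.06 (0.946).

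Heparan sulfate genes were tested for 24 of 24 in the list. DESeq2 called 1, Gpc3, a membrane-anchored heparan sulfate proteoglycan, with 14591, 12253 and 12612 normalized counts after IC and 17615, 14739 and 17171 after vehicle. Its log2 fold change was −0.33 with a DESeq2 adjusted p of 0.0271 and an edgeR adjusted p of 0.238. Leaving out IC replicate 2 (0.254) or 3 (0.176), or vehicle replicate 1 (0.0944) or 3 (0.256), ended the call. Glce, an enzyme that edits the chain, had −0.33 (DESeq2 adjusted p 0.0549). The estimates were negative for 16 and positive for 8, and the values of the groups lay apart for 12 of the 24, against 15.8% of all genes tested. Of those 12, Ndst2, Hs6st1, Hs3st3b1 and Gpc2 were higher after IC and the others lower. Over all lists DESeq2 called 3 of 74 tested pathway genes and edgeR none, against 2.10% and 0.186% of all genes tested. With the 10 FGF genes included, DESeq2 called 5 of 84 genes and edgeR 1.

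**Figure D5:**
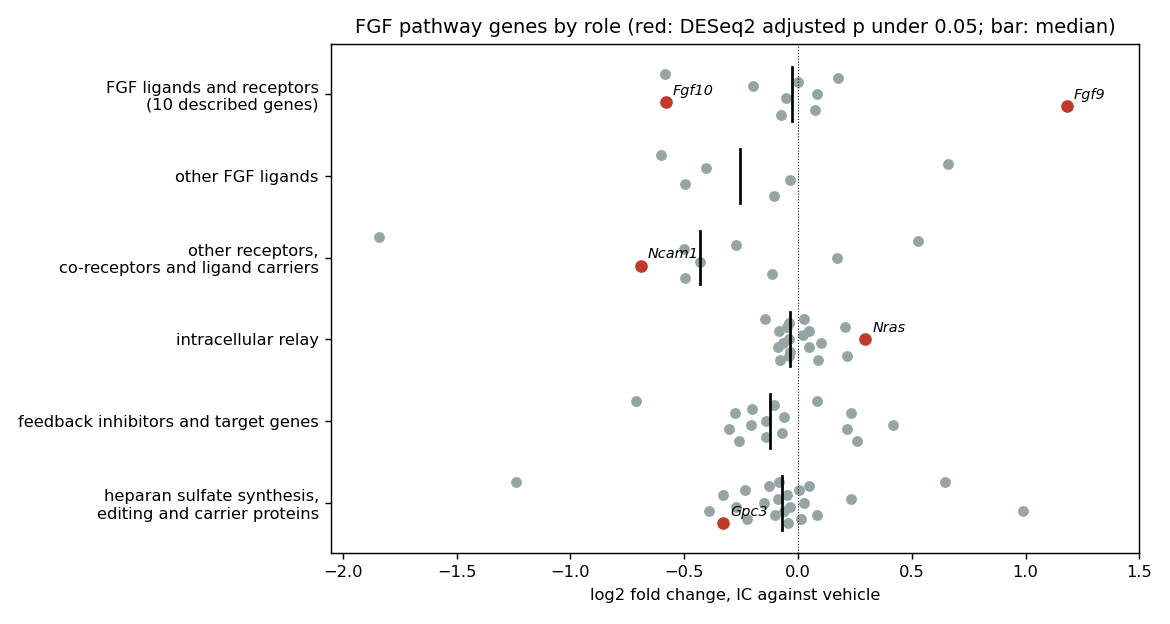
Log2 fold change between IC and vehicle (horizontal axis) of the 10 FGF genes and of 5 lists of pathway genes by role, one point per tested gene, with red for a DESeq2 adjusted p under 0.05 and a bar at each median. Called genes are Fgf9 and Nras to the right and Fgf10, Ncam1 and Gpc3 to the left, and the relay genes lie close to 0.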

How the data were processed

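RNA was measured in 6 libraries of fibroblasts sorted from mouse synovium, 3 labelled IC and 3 labelled Vehicle. The authors deposited raw read counts for each gene. Per the labels and the study's methods, the authors made them with Trim Galore, FastQC, HISAT2 on mm10 and featureCounts. Versions, the annotation and strand use in counting are not given in the sources used here, and the labels and methods name different library kits. The authors' methods name the default workflow of DESeq2 and removal of batch effects with sva, without giving the batches or the design. The labels give no batch, so the main fit had no batch term.

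Of 24348 genes in the table, 19925 reached 10 counts in 3 or more libraries and were tested with the Wald test of DESeq2 (version 1.42.0), treatment being the only term. Calls used a Benjamini-Hochberg adjusted p, over all genes tested, of less than 0.05. Normalized counts are counts divided by DESeq2's size factor. Total counts ran from 40114331 to 56714304 per library. Alternatives were edgeR's quasi-likelihood test (version 4.0.16), limma-voom (version 3.58.1), scaling by TMM or by total counts, omission of the count filter, no independent filtering, 1 surrogate variable from sva (version 3.50.0), the replicate number as a block, and each library left out in turn, with the count filter applied again to the remaining libraries. The replicate numbers were checked for pairing. Tests were checked on simulated data.

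The members, the pathway lists, the marker lists and the tests were chosen with earlier results of these data known. Named genes are the 10 members and, from each pathway list, the genes called by DESeq2, or, where fewer than 2 were called, the 2 with the smallest unadjusted p. For the member with the smallest p, the 3 genes of mean normalized count at least 100 with the highest Pearson correlation of log2(normalized count + 1) were added. Other named genes were chosen after their values were seen. Of the genes this rule names, 1 is not reported here. Lengths and positions are from GENCODE M21 on GRCm38, the assembly that mm10 names. Promoter sequences are from RefSeq on GRCm38.p6.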

Additional observations from a re-analysis of the deposited data

How the results depend on the processing

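Across alternatives that kept all 6 libraries, DESeq2 with other scalings, no count filter, no independent filtering or 1 surrogate variable called the same 2 FGF genes. edgeR and limma-voom each called 1, Fgf9. The pathway count of 3 became 0 by edgeR and 1 (Fgfr4) by limma-voom, and the 419 genes called in all became 37 and 62. Without 1 library the counts ran from 1 to 3 for the FGF genes, 1 to 6 for pathway genes and 281 to 677 for all genes, the last being highest without vehicle replicate 1. The difference in the Fgfr1 share ran from −1.19 to 1.06 percentage points without 1 library.

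Libraries that share a replicate number did not deviate together from their group means (correlations of −0.0487, −0.0536 and −0.00487 over 19486 genes), so they were treated as unpaired. DESeq2 with the replicate block called 320 genes, the same 2 FGF genes and 4 pathway genes, of which 2 (Gpc3 and Ncam1) were shared with the fit without it. Nras was lost (adjusted p 0.127), and Fgfr4 (7.03e-13) and Hs6st2 were gained. With that block edgeR called 22 genes, none of the FGF genes (0) and no pathway gene (0), with an adjusted p for Fgf9 of 0.0915.

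Estimates near 0 changed sign. Fgf2 (−0.00049) was 0.0047 with total-count scaling, 0.00018 with no filter and 0.025 with 1 surrogate variable, and ran from −0.030 to 0.055 without 1 library. Fgf7 was 0.031 and Fgfr2 −0.022 with 1 surrogate variable, and without 1 library they ran from −0.19 to 0.039 and from −0.027 to 0.28. Fgfr3 was 0.10 by limma-voom, 0.14 with the replicate block and 0.13 by edgeR with that block, and ran from −0.41 to 0.57 without 1 library. None of these was called, and the cause was not tested.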

Other observations

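Fgfbp1, which encodes a secreted carrier that releases FGF ligands from the matrix, was below the filter on low counts and was not tested. Its raw counts were 7, 16 and 31 in IC replicates 1 to 3 and 2, 0 and 5 in vehicle replicates 1 to 3. It was chosen after its values were seen. Fgfbp3, another carrier of the same family, was tested and had 108, 112 and 165 normalized counts after IC and 91.8, 77.5 and 98.5 after vehicle, a log2 fold change of 0.53 with a DESeq2 adjusted p of 0.654.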
